A study of Homo sapiens with 6 samples.

Results

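The nuclear lamina and the bridge that ties it to the cytoskeleton were examined through 10 genes: the lamins LMNA, LMNB1 and LMNB2, the SUN proteins SUN1 and SUN2, the nesprins SYNE1 and SYNE2, and the inner nuclear membrane proteins EMD, LBR and TMPO. They were taken as the rows whose gene name is 1 of these 10, and each name matched 1 row of the 60612 in the expression table. Of the 10, 9 were among the 14708 rows that passed a filter on low values, a mean of at least 0.5 FPKM over all libraries, and SYNE1 was not.

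Lamins are intermediate filament proteins that form a mesh under the inner nuclear membrane. In the LINC complex (linker of nucleoskeleton and cytoskeleton), SUN proteins span the inner nuclear membrane and bind, in the space between the membranes, the C-terminal KASH domains of nesprins, which span the outer membrane and reach actin, microtubules and intermediate filaments. Emerin (EMD), the lamin B receptor (LBR) and lamina-associated polypeptide 2 (TMPO) link the inner membrane and the lamina to chromatin. In the Gene Ontology column of the table, all 10 members carry the term nuclear envelope, 7 nuclear inner membrane, 5 lamin binding and 3 actin binding.

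RNA was sequenced from SNU-368, a human line that the labels place among hepatocellular carcinoma (HCC) lines. Of the 6 poly(A) libraries, 3 are labelled shTFAM, carrying a short hairpin RNA against TFAM, the factor that packages and transcribes mitochondrial DNA, and 3 are labelled shCtrl, carrying a control hairpin. The series title places the comparison in a study of TFAM loss, nuclear actin assembly and liver cancer metastasis. Libraries are numbered 1 to 3 within each group in accession order, and the numbers pair no libraries. The labels do not tie the libraries of a group to separate cultures, so the spread behind each p-value may be technical. In bulk RNA of this kind, fewer cells of a type and less RNA per cell cannot be told apart.

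Library totals ran from 46263488 to 61058282 counts in shTFAM and from 43286024 to 50910536 counts in shCtrl. TFAM RNA had 63.7, 65.0 and 56.7 CPM (counts scaled to a common library size) in shTFAM, against 82.2, 76.2 and 89.6 CPM in shCtrl. The groups did not overlap, and TFAM fell by 0.42 on the log2 scale (SE 0.107, edgeR quasi-likelihood test, Benjamini-Hochberg adjusted p = 0.0377), which makes the knockdown 1.34-fold at the RNA level. That call was lost when any 1 of the 6 libraries was left out (adjusted p 0.0676 to 0.0948). Such fits call fewer rows in general: 1148 to 2065 of all 14708 tested rows, against 2630 with all 6 libraries. Of 11 hepatocyte and liver cancer markers, ALB, AFP, APOA1, APOB, TTR and GPC3 had 0 counts in all libraries, and HNF4A, at most 2.46 CPM, had the highest level of the 3 others that missed the filter. Only KRT8 and KRT18, keratins shared by many epithelia, were tested. These markers thus do not bear out the liver label and cannot decide it, and the cells are called by the name of the line. Transcripts of mitochondrial DNA made up 7.91 to 10.7% of counts in shTFAM and 10.1 to 14.2% in shCtrl, and their part in the scaling is covered by an analysis scaled outside them. A library of the control group, shCtrl 3, stood apart: on the second principal component (16.6% of variance) it lay at 45.6, against -32.4 for shCtrl 1 and -22 for shCtrl 2, and results that rest on it are given without it.

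Of the 9 tested members, LMNA, SUN1 and SUN2 rose in shTFAM, 0 fell and 6 were not called at an adjusted p of 0.05 by edgeR's test. The 3 calls are 33.3% of the members tested, against 17.9% of all tested rows called, 11.3% higher and 6.59% lower. No member was lower at an unadjusted p under 0.05, and DESeq2 and limma called 0 lower. Over all rows 1661 were called higher and 969 lower, and with library totals in place of TMM scaling 1353 higher and 1266 lower. CPM of the groups did not overlap for 4 members, LMNA, SUN1, SUN2 and SYNE2, each higher in every shTFAM library. This is 44.4% of the members, against 42.2% of all tested rows in either direction and 22.1% in the higher direction. With 9 members, 3 calls are few, and the share without overlap in either direction lay close to that of all rows. The median log2 fold change of the 9 was 0.20, against -0.02 for all rows. Without shTFAM 3 it was 0.04, against -0.02 for all rows in that fit. Scaled to counts outside mitochondrial DNA it was 0.06, against -0.15 for all rows under that scaling.

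**Figure D1:**
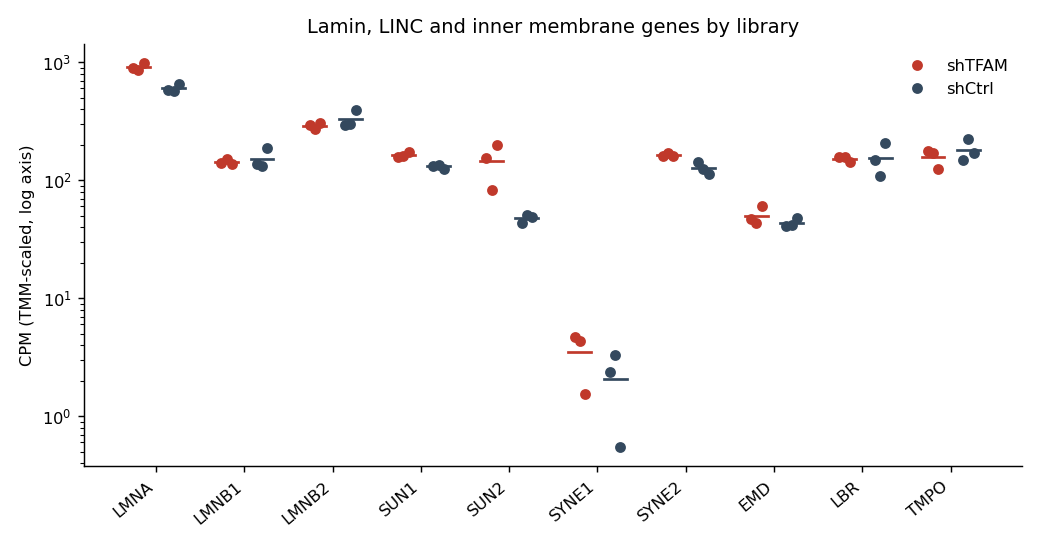
CPM of each of the 10 genes in every library, shTFAM left and shCtrl right, on a log axis, with points for libraries and short lines for group means (n = 3 each). LMNA and SUN2 separate the groups by the widest margins, LMNB1, LMNB2, EMD, SYNE1, LBR and TMPO overlap, and the shTFAM libraries of SUN2 spread from 82.3 to 201 CPM.

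Promoter sequences are shown for the members on which the contrast turns: SUN2 and LMNA, which rose, and LMNB1, the B-type lamin that was not called. They come from RefSeq (GRCh38.p14), run from 250 bases before to 50 after an annotated start, and are written 5′ to 3′ on the gene's strand. Capitals mark GGGCGG (the GC box bound by SP1), CCAAT (bound by NF-Y) and ACGTG (the core of the hypoxia response element) on either strand.
SUN2 (chr22:38755949-38756248, minus strand): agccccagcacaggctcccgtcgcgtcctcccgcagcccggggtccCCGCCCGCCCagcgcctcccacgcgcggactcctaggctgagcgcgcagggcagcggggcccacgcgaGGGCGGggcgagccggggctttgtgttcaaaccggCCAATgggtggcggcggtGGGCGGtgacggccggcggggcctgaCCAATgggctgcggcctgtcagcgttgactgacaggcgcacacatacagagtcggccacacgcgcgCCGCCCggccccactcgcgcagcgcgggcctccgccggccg
LMNA (chr1:156082323-156082622, plus strand): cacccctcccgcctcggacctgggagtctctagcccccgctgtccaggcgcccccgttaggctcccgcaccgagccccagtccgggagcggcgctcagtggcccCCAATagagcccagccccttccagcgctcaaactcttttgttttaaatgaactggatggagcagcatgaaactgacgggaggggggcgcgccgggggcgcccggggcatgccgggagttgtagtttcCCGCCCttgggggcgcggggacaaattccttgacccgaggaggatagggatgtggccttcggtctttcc
LMNB1 (chr5:126776886-126777185, plus strand): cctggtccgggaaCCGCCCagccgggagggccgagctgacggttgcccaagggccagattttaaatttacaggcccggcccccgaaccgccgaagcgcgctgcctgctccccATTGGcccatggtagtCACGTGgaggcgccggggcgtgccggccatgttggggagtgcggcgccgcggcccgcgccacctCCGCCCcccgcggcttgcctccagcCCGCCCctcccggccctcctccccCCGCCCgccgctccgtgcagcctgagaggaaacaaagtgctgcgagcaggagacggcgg
The SUN2 window holds 5 GGGCGG, of which 2 overlap each other, and 2 CCAAT at 77.0% GC, the LMNA window 1 of each at 66.3% GC, and the LMNB1 window 4 GGGCGG and 1 CCAAT at 73.7% GC. The LMNB1 window also holds a single CACGTG, which reads as ACGTG on both strands, while the SUN2 and LMNA windows shown hold no ACGTG. The windows shown are those of the first start listed for SUN2 and LMNA and of the second for LMNB1, and the counts differ between starts: the second SUN2 window holds 1 ACGTG, and the first LMNB1 window holds none of the 3 marked words. Over all 35116 windows of the same length, 45.0% hold GGGCGG, 34.6% hold CCAAT, 21.4% hold ACGTG and 7.26% hold CACGTG, so each of these words is common. The CArG box of serum response factor, searched by name, was found in none of the 20 windows of the 9 members with an entry and in 1.29% of all windows. RefSeq lists 3 starts each for SUN2 and LMNA and 2 for LMNB1, and counts per gene do not tell the starts apart.

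Of the lamins, LMNA rose and the B-type genes were not called. LMNA, which encodes lamins A and C by alternative splicing (ENSG00000160789, hg38 chromosome 1, 156082573 to 156140081, plus strand), had 893, 857 and 982 CPM in shTFAM, against 587, 569 and 655 CPM in shCtrl. Every shTFAM library lay above every shCtrl library, and the lowest shTFAM value stood well clear of the highest shCtrl value. LMNA rose 1.51-fold, a log2 fold change of 0.59 (SE 0.103, 95% interval 0.35 to 0.83, edgeR adjusted p = 0.0116). Group means were 911 ± 64.5 CPM in shTFAM and 604 ± 45.6 CPM in shCtrl (SD, n = 3 each). The call was lost without shCtrl 2, where the adjusted p was 0.0516, and kept in the other 13 of 14 alternative analyses, with adjusted p over the 14 from 4.68e-05 to 0.0516.

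LMNB1 (ENSG00000113368, chromosome 5, 126776623 to 126837020, plus strand), a lamin that stays farnesylated and membrane bound, had 141, 152 and 138 CPM in shTFAM, against 138, 133 and 188 CPM in shCtrl. The groups overlapped, and shCtrl 3 was the highest library of all. The log2 fold change was -0.09 (95% interval -0.43 to 0.25, edgeR adjusted p = 0.706), and without shCtrl 3 it was 0.08. LMNB2 (ENSG00000176619, chromosome 19, 2427638 to 2456959, minus strand), the second B-type lamin gene, had 295, 274 and 304 CPM in shTFAM, against 291, 301 and 393 CPM in shCtrl. Its groups overlapped as well, again with shCtrl 3 highest, and the log2 fold change was -0.17 (95% interval -0.49 to 0.14, adjusted p = 0.39), and without shCtrl 3 it was -0.03. Neither B-type lamin was called, and both intervals lie below the LMNA estimate of 0.59.

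Because LMNA was higher and the B-type lamins were not called, the makeup of the lamin RNA pool was set per length, using FPKM. LMNA made up 54.4 ± 1.49% of the summed FPKM of the 3 lamins in shTFAM (53.2 to 56.1%) and 42.1 ± 2.49% in shCtrl (39.3 to 44%). The ranges did not overlap, and the exact two-sided permutation p was 0.1, the smallest that 3 libraries against 3 can give. The ratio of LMNA to LMNB1 FPKM was 2.82, 2.52 and 3.17 in shTFAM, against 1.9, 1.91 and 1.56 in shCtrl, a 1.59-fold difference of the group means on the log2 scale. For LMNA to LMNB2 it was 2.01, 2.07 and 2.14 in shTFAM, against 1.33, 1.25 and 1.1 in shCtrl, a 1.69-fold difference. Without shCtrl 3, the log2 difference was 0.569 for LMNA to LMNB1, against 0.665 with it. It was 0.68 for LMNA to LMNB2 (0.756 with shCtrl 3) and 0.392 for LMNA to LBR (0.563 with shCtrl 3). The share depends on the length behind the FPKM, 9631 bases for LMNA, against 3190 in its longest coding transcript. Per kilobase of the longest transcripts, a length tried after the FPKM values were seen, LMNA made up 71.7 ± 1.25% of the lamin sum in shTFAM and 60.7 ± 2.47% in shCtrl, and its ratio to LMNB1 averaged 5.74 ± 0.651 in shTFAM and 3.62 ± 0.404 in shCtrl. LMNB1 to LMNB2 overlapped between groups and differed 1.06-fold (exact p = 0.4, adjusted over the 6 ratios 0.48). The exact p was 0.1 for each of the ratios with LMNA, 0.15 after adjustment over the 6, and 3 libraries against 3 cannot pass 0.05.

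**Figure D2:**
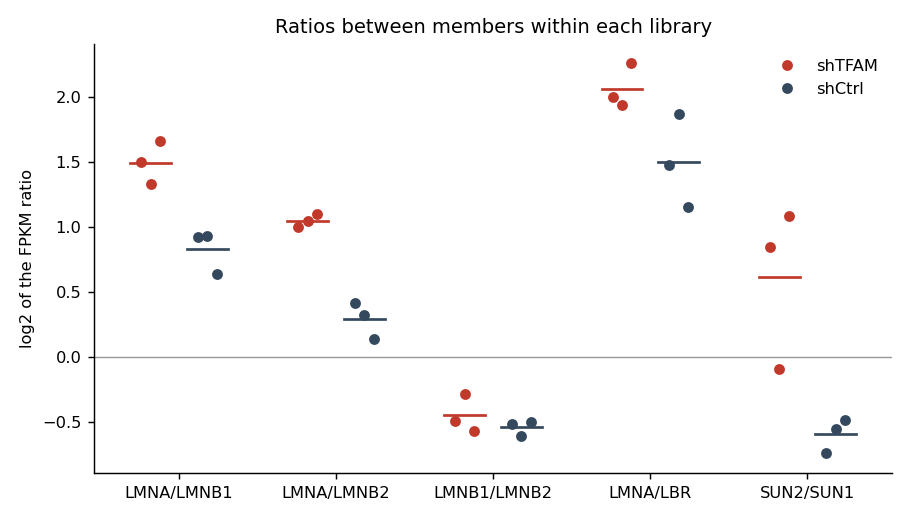
Log2 ratio of FPKM between members in each library, shTFAM left and shCtrl right for each ratio, with points for libraries and short lines for group means. LMNA over LMNB1, LMNB2 or LBR and SUN2 over SUN1 are higher in every shTFAM library than in any shCtrl library, while LMNB1 over LMNB2 overlaps.

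Both SUN genes rose, with a larger estimate for SUN2 than for SUN1. SUN2 (ENSG00000100242, chromosome 22, 38734725 to 38756000, minus strand), whose product forms the trimer that holds nesprins in the nuclear envelope, had 155, 82.3 and 201 CPM in shTFAM, against 43.6, 50.7 and 48.7 CPM in shCtrl. The groups did not overlap, and within shTFAM the second library was well below the other two while the shCtrl libraries lay close together. SUN2 rose 3.06-fold, the largest change among the tested members, a log2 fold change of 1.61 (SE 0.298, 95% interval 0.91 to 2.32, edgeR adjusted p = 0.0141). Its call was kept in 12 of 14 alternatives (lowest log2 fold change 1.31) and lost without shCtrl 1 (adjusted p = 0.0503) and with shCtrl 3 and shTFAM 3 both left out (log2 fold change 1.33, adjusted p = 0.0626).

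SUN1 (ENSG00000164828, chromosome 7, 816615 to 896435, plus strand), which in mice also tethers telomeres to the envelope in meiosis, had 157, 160 and 172 CPM in shTFAM, against 133, 136 and 124 CPM in shCtrl. The groups did not overlap and each was tight. SUN1 rose 1.25-fold (log2 fold change 0.32, SE 0.0873, 95% interval 0.11 to 0.52, edgeR adjusted p = 0.0465), just inside the threshold. The call was lost in 12 of 14 alternatives, including each library left out in turn (adjusted p 0.0786 to 0.121), and scaling to counts outside mitochondrial DNA (adjusted p = 0.163), while the log2 fold change stayed between 0.18 and 0.34.

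The balance of the SUN pair was set in the same way. SUN2 made up 60.3 ± 10.4% of the summed FPKM of the pair in shTFAM (48.4 to 68%) and 39.9 ± 2.19% in shCtrl (37.5 to 41.7%; exact permutation p = 0.1). The ratio of SUN2 to SUN1 was 1.8, 0.939 and 2.13 in shTFAM, against 0.599, 0.682 and 0.715 in shCtrl. By FPKM, SUN2 was thus the lower of the pair in every shCtrl library and in shTFAM 2, and the higher in shTFAM 1 and shTFAM 3. The group means of the log2 ratio differed by 1.21, which is 2.31-fold (exact permutation p = 0.1, adjusted over 6 ratios 0.15). The lengths behind the authors' FPKM bear on which gene is higher: they work out at 14028 bases for SUN1 and 7689 for SUN2, whereas the longest coding transcripts in GENCODE 29 have 4062 and 4055. Per kilobase of the longest transcript, SUN1 averaged more than SUN2 in both groups, at 40.2 against 36 CPM per kb in shTFAM and 32.2 against 11.8 in shCtrl. With lengths this close the order in each library follows CPM, and it was not uniform in shTFAM. SUN2 was higher in shTFAM 3 (201 against 172 CPM), close to SUN1 in shTFAM 1 (155 against 157) and lower in shTFAM 2 (82.3 against 160).

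Neighbouring genes overlap both SUN genes, and no source at hand says whether counting used the strand. GTPBP1, on the opposite strand, overlaps SUN2 by 1451 bases and had 121 ± 17.9 CPM in shTFAM and 77.1 ± 18.2 CPM in shCtrl (log2 fold change 0.66, edgeR adjusted p = 0.0599, DESeq2 adjusted p = 0.0125). GET4, on the same strand, overlaps SUN1 by 19882 bases and had 20.9 ± 0.955 CPM in shTFAM and 16.4 ± 1.51 CPM in shCtrl (log2 fold change 0.36, adjusted p = 0.0963). Their part in the SUN values was not tested.

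The giant nesprins differed in level by far more than either differed between groups. SYNE2, encoding nesprin-2 (ENSG00000054654, chromosome 14, 63761899 to 64226433, plus strand), had 160, 172 and 161 CPM in shTFAM, against 142, 126 and 113 CPM in shCtrl. Every shTFAM library lay above every shCtrl library. The log2 fold change was 0.37 (SE 0.108, 95% interval 0.12 to 0.63), and the adjusted p of 0.0533 from edgeR missed the threshold, while DESeq2 called it (adjusted p = 0.0249). Without shCtrl 3 the log2 fold change of SYNE2 was 0.29 (edgeR adjusted p = 0.0927). SYNE1, encoding nesprin-1 (ENSG00000131018, chromosome 6, 152121684 to 152637399, minus strand), had 216, 196 and 89 counts in shTFAM, against 106, 170 and 27 in shCtrl. These are 4.67, 4.37 and 1.54 CPM in shTFAM and 2.39, 3.31 and 0.547 CPM in shCtrl, and the groups overlapped, with shTFAM 3 and shCtrl 3 lowest in their groups. Per length, SYNE2 averaged 4.15 ± 0.222 FPKM in shTFAM and 3.39 ± 0.395 FPKM in shCtrl, against 0.0619 ± 0.0314 and 0.038 ± 0.0256 FPKM for SYNE1. Both genes have many short isoforms, some without the actin-binding end or without the KASH domain, which counts per gene do not separate.

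Of EMD, LBR and TMPO at the inner membrane, 0 were called by edgeR, 0 at an unadjusted p under 0.05 and 0 by DESeq2 or limma. EMD, which encodes emerin and is mutated in X-linked Emery-Dreifuss muscular dystrophy (ENSG00000102119, chromosome X, 154379273 to 154381523, plus strand), had 46.5, 43.3 and 60.3 CPM in shTFAM, against 41.2, 41.8 and 48.1 CPM in shCtrl. The groups overlapped, and the third library was the highest in each (log2 fold change 0.20, 95% interval -0.15 to 0.55, edgeR adjusted p = 0.39), and without shTFAM 3 the log2 fold change was 0.04. LBR, a receptor for B-type lamins and heterochromatin that also carries sterol reductase activity (ENSG00000143815, chromosome 1, 225401502 to 225428855, minus strand), had 156, 156 and 144 CPM in shTFAM, against 148, 109 and 205 CPM in shCtrl. Its shCtrl libraries enclosed all the shTFAM values, with a log2 fold change of -0.02 (95% interval -0.52 to 0.49, adjusted p = 0.968). The estimate became 0.24 without shCtrl 3 and 0.02 without shTFAM 3. TMPO, whose LAP2 isoforms bind lamins and the chromatin protein BANF1 (ENSG00000120802, chromosome 12, 98515579 to 98550351, plus strand), had 176, 170 and 124 CPM in shTFAM, against 150, 222 and 172 CPM in shCtrl. The groups overlapped (log2 fold change -0.21, 95% interval -0.65 to 0.24, adjusted p = 0.48), and the log2 fold change was -0.03 without shCtrl 2 and -0.06 without shTFAM 3. Its antisense partner TMPO-AS1, which overlaps it by 844 bases and could share reads, had 11.98 ± 0.742 CPM in shTFAM and 9.20 ± 1.1 CPM in shCtrl (adjusted p = 0.13).

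**Figure D3:**
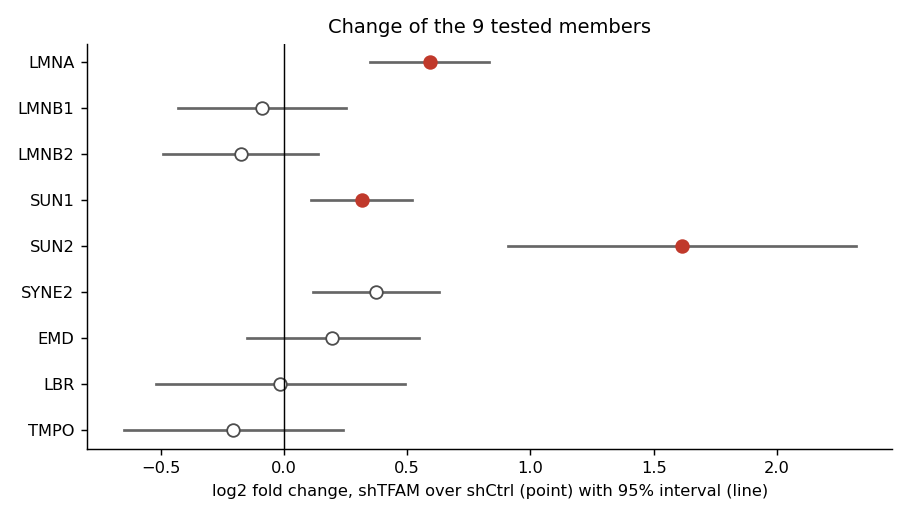
Log2 fold change of the 9 tested members, shTFAM over shCtrl, with 95% intervals from the edgeR fit, filled where called. LMNA, SUN1, SUN2 and SYNE2 have intervals above 0, and SYNE2 was not called after adjustment over all rows.

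Per length, LMNA had the highest level of the 10 in both groups, 91.2 ± 4.36 FPKM in shTFAM and 64.1 ± 5.28 FPKM in shCtrl. In shTFAM it was followed by LMNB2 (44.0 FPKM), LMNB1 (32.3), LBR (21.8), EMD (20.9), SUN2 (18.3), TMPO (15.1), SUN1 (11.2), SYNE2 (4.15) and SYNE1 (0.0619). LBR, EMD, SUN2 and TMPO each overlapped their neighbour there, while LMNA, LMNB2 and LMNB1 were apart from each other. In shCtrl the order was LMNA, LMNB2 (52.6 FPKM), LMNB1 (36.4), LBR (23.3), EMD (19.4), TMPO (18.4), SUN1 (9.54), SUN2 (6.33), SYNE2 (3.39) and SYNE1 (0.038). There LBR, EMD and TMPO each overlapped the neighbour, and LMNA overlapped LMNB2 by FPKM but not per kilobase of the longest transcript, where LMNA had 178 to 205 CPM per kb and LMNB2 62.3 to 84.1 in shCtrl. SUN2 stood 6th in shTFAM and 8th in shCtrl by FPKM, and 8th in both per kilobase of the longest transcript.

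The control library that stood apart did not shift the members alike. Relative to the mean of the other shCtrl libraries, shCtrl 3 was 1.6 times as high for LBR, 1.39 for LMNB1, 1.33 for LMNB2, 1.16 for EMD and 1.13 for LMNA, each the highest of the group. It was the lowest of the group for SUN1 (0.926), SYNE2 (0.844) and SYNE1 (0.192), and between the others for SUN2 and TMPO. Without shCtrl 3, LMNA and SUN2 kept their calls.

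Pattern over the 6 libraries was set against all other tested genes with a mean of at least 5 FPKM. The 3 genes most like LMNA, by Pearson r of log2 CPM, were RAB1B (r = 0.999), a GTPase of transport between the endoplasmic reticulum and the Golgi, ALDOC (0.997), a fructose-bisphosphate aldolase, and ACTN4 (0.997), an actin-crosslinking alpha-actinin. Their log2 fold changes were 0.56 for RAB1B, 1.36 for ALDOC and 0.71 for ACTN4, in the direction of LMNA as their choice by likeness fixes, so no test is given. ACTN4 averaged 727 ± 53.5 CPM in shTFAM and 445 ± 28.7 CPM in shCtrl. The 3 most like LMNB1 were MYO10 (0.991), an unconventional myosin, NSFP1 (0.988), a pseudogene that can share reads with NSF, and LRRC58 (0.987), with log2 fold changes of -0.10, -0.13 and -0.12. These r were ranked over all such genes and describe only these 6 libraries.

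**Figure D4:**
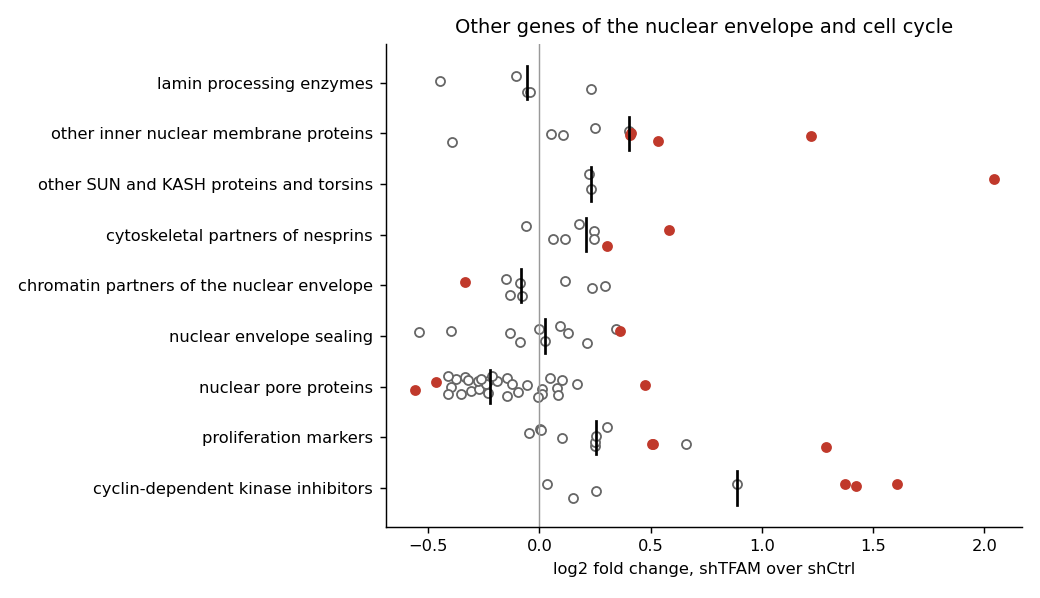
Log2 fold change, shTFAM over shCtrl, of every tested gene in 9 lists of the nuclear envelope, its partners and the cell cycle, 1 row per list, with points for genes (filled where called) and a line at each list's median. Genes of the inner nuclear membrane list, which counts TOR1AIP2, and cyclin-dependent kinase inhibitors lie mostly above 0. Of 32 nuclear pore genes, 24 lie below 0.

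Other genes of the envelope, its partners and the cell cycle were counted in 9 lists. Of 101 genes, 95 were tested: 15 rose, 3 fell and 77 were not called, with a median log2 fold change of 0.05, against -0.02 for all rows. The calls are 15.8% higher and 3.16% lower, against 11.3% and 6.59% of all rows. In the lists of inner membrane, SUN and KASH, cytoskeletal, proliferation and inhibitor genes 0 fell by edgeR, 0 were lower at an unadjusted p under 0.05, and DESeq2 and limma called 0 lower. Of the 18 calls, 5 were kept with each library left out in turn, those of SPAG4, MKI67, CDKN1C, CDKN2B and CDKN2D, and the other 13 were lost in at least 1 of these fits.

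In the list of other inner nuclear membrane genes, 4 of 9 rose and 0 fell, with a median of 0.40. Of all rows 11.3% were called higher, with a median of -0.02. With 1 library left out, 1 to 2 of the 9 were called higher. The count was 2 with library totals, with scaling outside mitochondrial DNA and with limma. The list counts TOR1AIP2, whose product LULL1 lies mainly in the endoplasmic reticulum. ANKLE2, which acts on the phosphorylation of BANF1 as the envelope reforms after mitosis, rose to 191 ± 15.9 CPM in shTFAM, against 132 ± 0.862 CPM in shCtrl (log2 fold change 0.53, edgeR adjusted p = 0.0114; 0.0506 without shCtrl 2). NRM, encoding nurim, rose to 45.6 ± 11.6 CPM in shTFAM, against 19.6 ± 5.43 CPM in shCtrl (log2 fold change 1.22, adjusted p = 0.0213), and lost its call without shTFAM 1, shTFAM 2, shCtrl 1 or shCtrl 3 (adjusted p up to 0.0711). TOR1AIP1 and TOR1AIP2, the activators of torsin ATPases known as LAP1 and LULL1, rose by 0.41 each (adjusted p 0.0482 and 0.0467), and each kept its call in 1 of 6 fits with a library left out, TOR1AIP1 without shCtrl 3 and TOR1AIP2 without shTFAM 1. TMEM201, the one gene of this list with a negative value, had a log2 fold change of -0.39 (adjusted p = 0.192).

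Of 9 further SUN, KASH and torsin genes, 3 were tested and 1 rose. That gene, SPAG4, encodes a SUN-domain protein described in testis and in some tumours, and had 34.3, 35.8 and 62.8 CPM in shTFAM, against 12.9, 10.9 and 8.52 CPM in shCtrl. Every shTFAM library lay far above the shCtrl libraries, and SPAG4 rose by 2.04 log2 units (SE 0.279, edgeR adjusted p = 0.00549), keeping its call in all 14 alternatives. TOR1A and TOR1B, the torsins themselves, were not called, and TOR1A had 44.7 ± 4.2 CPM in shTFAM and 38.3 ± 13.7 CPM in shCtrl. SUN5, KASH5 and IRAG2 had 0 counts in every library, below the floor of 3 counts (0.0519 to 0.0677 CPM), and SUN3 stayed under it. SYNE3, at 9.61 CPM in shTFAM and 8.85 CPM in shCtrl, and SYNE4, at 1.29 CPM in shTFAM and 1.74 CPM in shCtrl, fell short of the filter.

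Of the 8 cytoskeletal partners of nesprins, 2 rose and 0 fell, against 11.3% of all rows called higher and 6.59% lower. PLEC, encoding plectin, which links nesprin-3 to intermediate filaments, had 1283, 1310 and 1625 CPM in shTFAM, against 940, 867 and 1009 CPM in shCtrl, without overlap. It rose by 0.58 log2 units (edgeR adjusted p = 0.0232) and lost its call without shCtrl 1 or shCtrl 2 (adjusted p up to 0.0819). KLC1, a kinesin light chain, rose by 0.30 (adjusted p = 0.0458) and lost its call in every fit with a library left out. FHOD1, a formin that binds nesprin-2, had 74.1 ± 6.03 CPM in shTFAM and 62.6 ± 1.31 CPM in shCtrl (log2 fold change 0.24, adjusted p = 0.126).

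The 5 lamin-processing enzymes gave no call by edgeR, with 0 at an unadjusted p under 0.05, and DESeq2 and limma called 0. ZMPSTE24, the protease that removes the farnesylated end of prelamin A, had 30.4 ± 10.1 CPM in shTFAM and 41.4 ± 2.18 CPM in shCtrl (log2 fold change -0.45, edgeR adjusted p = 0.24). ICMT, which methylates that end, had 140 ± 16.6 CPM in shTFAM and 144 ± 25 CPM in shCtrl (adjusted p = 0.881). Of 8 chromatin partners 1 fell, EHMT2, a histone H3 lysine methyltransferase also known as G9a, at 122 ± 2.78 CPM in shTFAM and 153 ± 12.4 CPM in shCtrl (log2 fold change -0.33, adjusted p = 0.0498), and it lost its call in every fit with a library left out. Of 11 envelope-sealing genes 1 rose, CHMP4B, an ESCRT-III subunit, at 133 ± 2.13 CPM in shTFAM and 103 ± 8.17 CPM in shCtrl (log2 fold change 0.36, adjusted p = 0.038), with its call kept in 1 of 6 such fits, the one without shCtrl 3.

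Of 32 nuclear pore genes 1 rose, 2 fell and 29 were not called, although 24 had a negative log2 fold change and the median was -0.22. Of all tested rows 11.3% were called higher and 6.59% lower, with a median of -0.02. In the reported fit the share of pore genes called lower was thus near that of all rows. Without shCtrl 3 the median was -0.11 with 22 negative, and with shTFAM 3 also left out it was -0.10. NUP42 fell by 0.56 on the log2 scale (17.7 ± 1.77 CPM in shTFAM, 26.1 ± 1.61 CPM in shCtrl, edgeR adjusted p = 0.0268). AHCTF1, encoding ELYS, which seeds pores on chromatin, fell by 0.46 (145 ± 7.89 CPM in shTFAM, 200 ± 31.5 CPM in shCtrl, adjusted p = 0.0465). NUP58, of the central channel, rose by 0.47 (105 ± 12.7 CPM in shTFAM, 75.6 ± 2.34 CPM in shCtrl, adjusted p = 0.0296). NUP42 and NUP58 kept their calls in 1 of 6 fits with a library left out, the one without shTFAM 2, and AHCTF1 in 0. Scaled to counts outside mitochondrial DNA, 7 of 32 pore genes were called lower, against 1771 of all 14708 rows. Under that scaling 30 of 32 were negative with a median of -0.35, against a median of -0.15 for all rows.

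Lamin RNA is known to vary with growth state, LMNB1 falling in senescent cells in culture, so growth genes were set beside the members. Of 12 proliferation markers 3 rose and 0 fell: MKI67 had 728, 933 and 947 CPM in shTFAM, against 265, 336 and 467 CPM in shCtrl, and rose by 1.29 log2 units (edgeR adjusted p = 0.0108). TOP2A rose by 0.51 (adjusted p = 0.0187) and CDK1 by 0.51 (adjusted p = 0.017), and both lost their calls without shTFAM 2, shCtrl 1 or shCtrl 2. CCNB1 (303 ± 11 CPM in shTFAM, 303 ± 66.5 CPM in shCtrl) and MCM2 (443 ± 63 CPM in shTFAM, 441 ± 57.5 CPM in shCtrl) were not called. Their log2 fold changes were 0.001 and 0.007, whereas the 12 markers had a median of 0.25, with 11 positive and 1 negative. Of all rows 11.3% were called higher, with a median of -0.02. Of 7 cyclin-dependent kinase inhibitors 3 rose and 0 fell, with a median of 0.89 (0.52 without shCtrl 1 and 1.31 without shCtrl 2): CDKN1C (p57) by 1.61 log2 units, CDKN2B (p15) by 1.42 and CDKN2D (p19) by 1.37 (adjusted p 0.00634, 0.00282 and 0.00939). CDKN1A (p21), whose own value is that median, had 160 ± 76.5 CPM in shTFAM and 86.1 ± 46.7 CPM in shCtrl. It was not called (log2 fold change 0.89, edgeR adjusted p = 0.273). CDKN1B, CDKN2A and CDKN2C were not called either, with log2 fold changes of 0.15, 0.26 and 0.03. Markers of growth and of its inhibition thus both held called rises, and the part of growth state in the member values was not tested.

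Markers of other cell types were given for the same libraries. LMNA is high in mesenchymal and stiff tissues. Of 7 fibroblast markers 4 were tested, of which DCN and PDGFRB rose, by 2.95 and 1.69 log2 units (edgeR adjusted p 0.00276 and 0.000721). DCN had 23.6 ± 5.88 CPM in shTFAM and 3.06 ± 1.04 CPM in shCtrl. Its mean of 0.842 FPKM over the 6 libraries came mostly from shTFAM, through which it passed the filter, so its test is not independent of that choice. PDGFRB had 49.9 ± 3.8 CPM in shTFAM and 15.5 ± 0.345 CPM in shCtrl. LUM had 4.81 ± 1.97 CPM in shTFAM and 2.14 ± 0.89 CPM in shCtrl (log2 fold change 1.17, adjusted p = 0.0924). COL3A1, under the filter and not tested, had 2.98 to 5.74 CPM in shTFAM and 0.214 to 0.406 CPM in shCtrl, without overlap. COL1A1 had 326 ± 40.6 CPM in shTFAM and 306 ± 75.7 CPM in shCtrl, while COL1A2 and PDGFRA had 0 counts in all 6 libraries. The summed level of the 7 ran from 37.3 to 40.8 FPKM in shTFAM and from 24.5 to 37.5 FPKM in shCtrl. Most of that sum was COL1A1, at a mean of 29.5 FPKM over the 6 libraries. KRT8, an epithelial keratin, rose by 0.61 (adjusted p = 0.016; lost without shCtrl 1 or shCtrl 2), and KRT18 had 590 ± 30.7 CPM in shTFAM and 619 ± 83.4 CPM in shCtrl. The summed level of the 11 liver markers ran from 269 to 275 FPKM in shTFAM and from 225 to 270 FPKM in shCtrl. Nearly all of that sum was KRT8 and KRT18, at means of 97.1 and 166 FPKM over the 6 libraries. Endothelial and leukocyte markers (4 and 5 genes) summed to at most 0.643 FPKM and 0.534 FPKM in any library, with KDR, PTPRC and CD3E at 0. The part of these markers in the member values was not tested.

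**Figure D5:**
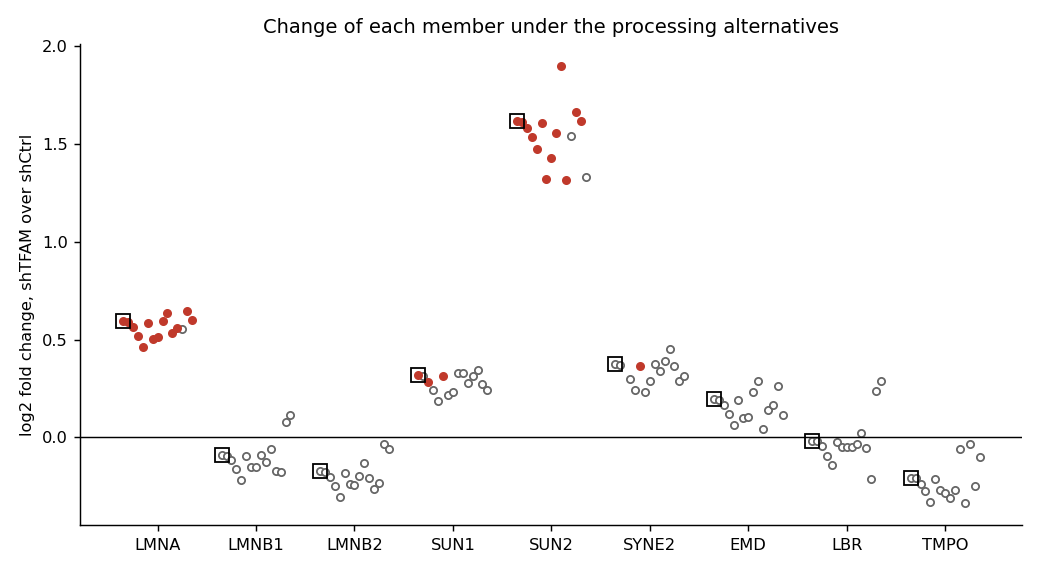
Log2 fold change of each tested member under each alternative analysis (points, filled where called) with the reported value as an open black square. LMNA and SUN2 stay above 0 throughout, SUN1 and SYNE2 stay above 0 but are called in few analyses, and LMNB1 and LBR cross 0.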

How the data were processed

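The authors deposited, per the file headers, whole-number counts and FPKM (counts scaled to gene length and depth) for 60612 genes in 6 libraries. Per the labels' protocols the poly(A) libraries were dUTP-marked. The submitters' processing notes name cutadapt 1.9, HISAT2 2.0.4, StringTie 1.3.4d, Bowtie 0.12.2, hg38 and mm8. The counting tool, its annotation and its strand setting are not given in the sources used here. Row coordinates are taken as hg38.

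Deposited counts were tested in R 4.3.3 with edgeR 4.0.16 (quasi-likelihood, TMM factors 0.951 to 1.04, no covariates). Rows needed a mean of at least 0.5 FPKM over the 6 libraries, and p-values were adjusted by Benjamini-Hochberg over all 14708 rows, which held 99.42 to 99.5% of counts, at a threshold of 0.05. CPM are scaled with the TMM factors. Precision rests on the spread of 3 libraries a group (biological coefficient of variation 0.251), and the floor of 3 counts covers counting error only. No replicate pair agreed within sampling noise (lowest chi-square per degree of freedom 42.6). The fit was tested on simulated data.

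Ratios of FPKM were compared by exact two-sided permutation. Alternatives were DESeq2 1.42.0, limma 3.58.1 on log2(FPKM + 1) and log2(FPKM + 0.1), other filters, other scalings and left-out libraries. Plots used matplotlib 3.10.9.

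Named were all 10 members, TFAM, per list up to 3 called genes of smallest p (or, with none called, the 2 of highest FPKM), and the 3 genes most like LMNA and LMNB1. TOR1AIP1, TMEM201, TOR1A, TOR1B, FHOD1, CCNB1, MCM2, CDKN1A, CDKN1B, CDKN2A, CDKN2C, genes that overlap members and untested genes were added after their values were seen. The members and lists were chosen with earlier results of these data known.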

Additional observations from a re-analysis of the deposited data

How the results depend on the processing

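LMNB1 turned from -0.088 to 0.078 without shCtrl 3 (left-out range -0.178 to 0.078) and to 0.112 with shCtrl 3 and shTFAM 3 both out, an alternative chosen after seeing the data. LBR turned from -0.017 to 0.023 without shTFAM 3, 0.239 without shCtrl 3 (range -0.214 to 0.239) and 0.286 with both out. The SYNE2/SYNE1 log2 ratio turned from -0.584 to 0.129 without shCtrl 3 (range -1.103 to 0.129). The causes were not tested.

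Members called higher numbered 1 to 2 with 1 library left out (1 without shCtrl 1 or shCtrl 2), 1 with both out, and 2 to 4 elsewhere, against 3, and 0 were called lower throughout. At an unadjusted p under 0.05, LMNA, SUN1, SUN2 and SYNE2 passed. List genes called higher numbered 6 to 13 with 1 library left out, against 15. List genes called lower, 3 in the reported fit, numbered 1 with no filter, 5 at 5 FPKM or more, 8 scaled outside mtDNA, 6 with DESeq2, 5 with limma at either pseudocount, 0 to 1 with 1 library left out and 0 with both out. LMNB2, EMD and TMPO kept their direction and stayed uncalled in all 14 alternatives, but their sizes moved with 1 library left out, LMNB2 from -0.266 to -0.034, EMD from 0.04 to 0.289 and TMPO from -0.336 to -0.034. LMNA's share of the lamins differed by 12.3 points, and by 11 per longest transcript.

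Over all rows, 1661 higher and 969 lower became 1353 and 1266 with library totals, and 1198 and 1771 scaled outside mtDNA, where the median of all rows moved to -0.15. With limma they became 1278 and 1337 (1264 and 1317 with 0.1 added). LMNA and SUN2 kept their calls under each scaling, and SUN1 only with DESeq2's. No paired analysis was possible because the labels' titles give the groups no shared numbers; the numbers used here follow accession order. Of the members, SYNE1 had the fewest counts, 27 to 216 a library, and it alone missed the filter, with a length of 55662 bases behind its FPKM.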
